A study of Mus musculus with 9 samples.

Results

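The genes described here are those of the autophagy machinery and the receptors of ER-phagy, the selective removal of pieces of the endoplasmic reticulum, in BV2 microglia whose Nus1 was knocked down. They were taken by symbol from a list of 38 genes drawn up by function, with no threshold on measured values. Earlier results of these data were known when the list was chosen. The deposited table held 37 of the 38 among its 16398 genes, and 1 more is not analysed here. All 37 passed the filter on low counts, which left 11739 genes for testing. They were grouped by the step at which they act: 5 genes of the initiation complex, 4 of the phosphatidylinositol 3-kinase (PI3-kinase) complex, 5 that act downstream of its lipid product, 6 of the ATG12 and ATG8 conjugation systems, 4 ATG4 proteases, 5 ATG8 proteins, 4 cargo receptors and 4 ER-phagy receptors.

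Autophagy encloses cytoplasm in a double membrane, the autophagosome, and delivers it to lysosomes for breakdown. Small ubiquitin-like ATG8 proteins are coupled to lipid on the growing membrane, and receptors that bind both an ATG8 protein and a cargo decide what is taken up. Microglia, the resident phagocytes of the brain, use this pathway to clear protein aggregates and damaged organelles, and the ER-phagy receptors trim the endoplasmic reticulum, the compartment in which the product of Nus1 works.

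Nus1 encodes a subunit of an enzyme in the synthesis of dolichol phosphate, the lipid carrier of the sugars used in N-glycosylation. BV2 is an immortalised mouse microglial line, here wild type in all groups, and every culture received siRNA with RNAiMAX for 24 h and then fresh medium with 10% FBS for 24 h, so that RNA was taken at 48 h. The control (NC), siRNA 644 and siRNA 878 groups had 3 libraries each, labelled as biological replicates, and the labels do not say whether they were transfected on separate days. Both siRNA groups were set against the same controls, and the labels name the siRNAs by number alone.

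Libraries held between 19362331 and 20224707 counts. Nus1 stood at 51.6 CPM (counts scaled to a common depth, on library sizes corrected by TMM factors) in controls, with log2 fold changes of −3.74 (SE 0.264, edgeR quasi-likelihood test, adjusted p = 2.11e-05) with siRNA 644 and −2.94 (SE 0.251, adjusted p = 6.43e-05) with siRNA 878. All 10 microglial markers were measured, with a summed FPKM (fragments scaled to transcript length and library depth) of 4078 to 4515 in controls, 5091 to 5334 with siRNA 644 and 4070 to 5120 with siRNA 878. Markers of neurons, astrocytes, endothelial cells and fibroblasts summed to at most 0.46, 0.07, 0.2 and 0.03 FPKM and those of oligodendrocytes to 0.81 to 1.47. Replicate 2 of siRNA 878 stood apart. Its root mean square log2 difference over all tested genes was 0.561 and 0.659 from the other 878 libraries, which differed from each other by 0.275, and it lay nearer to replicate 1 of siRNA 644 (0.409). Nus1 was at 3.73 CPM in that library, beside 8.01 and 8.35 CPM in 878 replicates 1 and 3 and 3.46 to 4.15 CPM with siRNA 644. Values without 878 replicate 2 are given for autophagy genes whose call that library changed and for some others. They are not given for every gene whose size it changed. Atg4d with siRNA 878, for example, had a log2 fold change of 0.07 with all libraries and −0.19 without that library, uncalled in both.

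In control cells the 37 genes spanned a wide range of level per transcript length. Gabarap, an ATG8 protein of the GABARAP branch, had the highest mean at 358 ± 32.9 FPKM (SD, n = 3). Sqstm1, which encodes the ubiquitin-binding receptor p62, followed at 189 ± 12.8 FPKM, then the ER-phagy receptor Rtn3 at 106 ± 2.03 and Map1lc3b (LC3B) at 80.4 ± 3.86. These 4 were separated from each other by more than their SDs. The lowest were Rb1cc1 (FIP200) at 3.03 ± 0.632, Ulk2 at 2.68 ± 0.378 and Wipi1 at 1.36 ± 0.305 FPKM, of which Rb1cc1 and Ulk2 did not differ beyond their spread. Wipi1 had 36 to 65 counts per library.

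The first question is which autophagy genes differ from control after each siRNA. With siRNA 644, 6 of 37 genes rose and 1 fell at an adjusted p under 0.05 (18.9%), where 31.6% of all tested genes were called (16.6% higher, 15% lower). With siRNA 878, 8 rose and 1 fell (24.3%), beside 31.5% of all tested genes (16% higher, 15.5% lower). Sqstm1, Map1lc3a, Tex264, Atg10, Gabarap and Wipi2 rose and Tax1bp1 fell with each siRNA, and Gabarapl1 and Atg16l1 were called with siRNA 878. With library sizes alone, without TMM factors, the split was 8 higher and 0 lower with siRNA 644 and 8 higher and 4 lower with siRNA 878. The share called was thus near or below that of genes at large, and most of the list did not pass the test. The median log2 fold change of the 37 genes was 0.04 with siRNA 644 and 0.08 with siRNA 878, beside −0.01 and 0.00 over all tested genes. At an unadjusted p under 0.05 the counts were 13 and 15 of the 37 genes, beside 43.2% and 42.6% of all tested genes. In the authors' deposited table, 8 of the 37 were higher and 4 lower with siRNA 644 at a q-value under 0.05, and 7 were higher and 1 lower with siRNA 878. The RNA is from bulk cultures, in which fewer cells of a kind and less RNA per cell cannot be told apart.

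**Figure D1:**
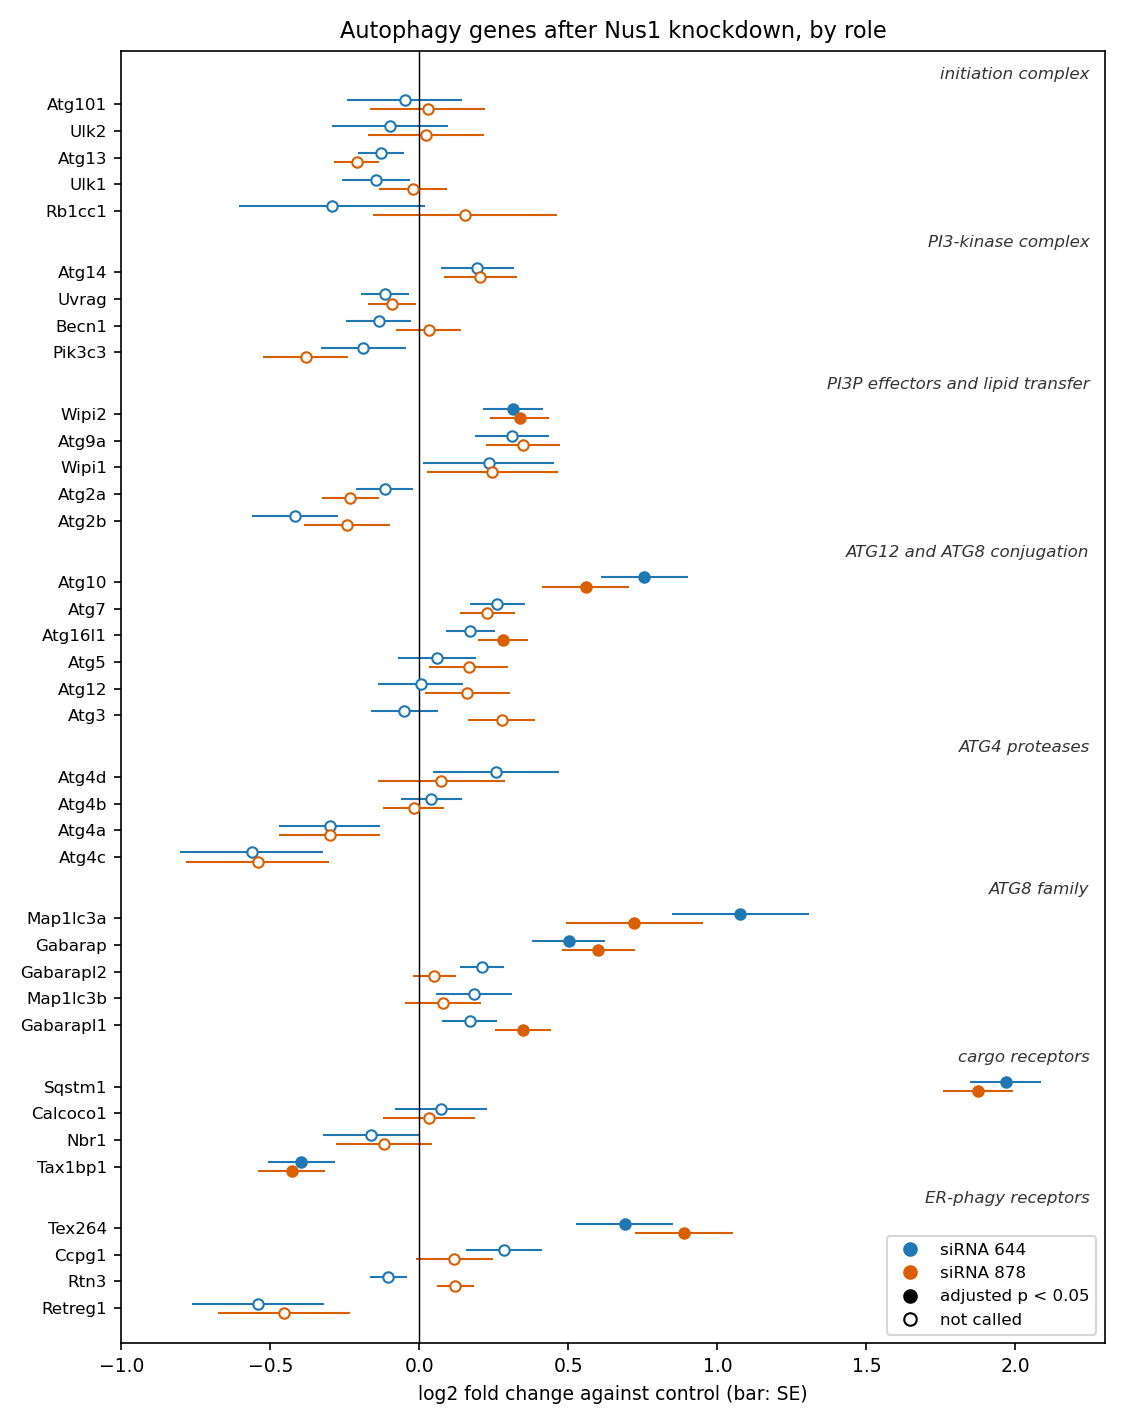
Log2 fold change against control (x axis, bars are SE, n = 3 libraries per group) of the 37 autophagy genes, grouped by role, with siRNA 644 in blue and siRNA 878 in orange. Filled points passed an adjusted p under 0.05. Sqstm1 lies at 1.97 and 1.87, and most of the other points lie within 0.5 of 0.

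Among cargo receptors, Sqstm1 rose more than any other gene of the list. Its level was 351, 396 and 338 CPM in the controls, 1544, 1281 and 1416 CPM with siRNA 644 and 1240.3, 1505 and 1231 CPM with siRNA 878. Every knockdown library lay above every control library, by a wide margin. The fold change was 3.91 with siRNA 644 (log2 1.97, SE 0.119, edgeR adjusted p = 1.1e-05) and 3.67 with siRNA 878 (log2 1.87, SE 0.118, adjusted p = 1.28e-05). Both calls held in each of 19 alternative analyses, in which the log2 values ran from 1.82 to 2.04 and from 1.78 to 1.94. The authors' deposited table gives Sqstm1 log2 fold changes of 1.96 and 1.87.

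Sqstm1 is itself degraded by autophagy as a protein, so that its transcript and its protein need not move together, and protein was not measured here. The table's Sqstm1 model holds 3 transcripts and carries the strand opposite to that in RefSeq (GRCm38.p6). It reaches 1414 bases beyond the RefSeq span on the side of the gene's start, upstream across its promoter and toward the neighbouring gene Mgat4b. The same disagreement in strand was found for Atg14, Uvrag and Atg2b, which makes 4 of 31 genes compared. Mgat4b itself was at log2 fold changes of 0.16 (adjusted p = 0.428) and 0.34 (adjusted p = 0.116). The effect of that model on the Sqstm1 counts was not tested.

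Tax1bp1, a receptor for ubiquitin-coated cargo and a brake on inflammatory signalling, was the only member called lower in these 2 comparisons. It was at 146, 132.5 and 141 CPM in controls, 109.9, 107.7 and 101 CPM with siRNA 644 and 110.1, 85.4 and 116 CPM with siRNA 878. All 6 knockdown libraries lay below all 3 controls. The log2 fold changes were −0.40 (SE 0.113, edgeR adjusted p = 0.0272) and −0.43 (SE 0.113, adjusted p = 0.0194). The first call was lost without any 1 of the control or 644 libraries, where the log2 value stayed between −0.43 and −0.36 and the adjusted p reached 0.103, and with library sizes alone (−0.44, adjusted p = 0.0518). The second was lost without control replicate 1 or 3, with an adjusted p of up to 0.0746, and with only the 2 groups compared in the fit (adjusted p = 0.0642), and held at −0.30 (adjusted p = 0.00805) without 878 replicate 2. A fit with an offset per gene for its GC content and its length gave −0.21 (adjusted p = 0.0218) and −0.29 (adjusted p = 0.00486). Nbr1, a receptor with the same domain plan as p62, was at −0.16 and −0.12 and was not called (adjusted p = 0.471 and 0.617). Calcoco1, a receptor that has also been tied to ER and Golgi turnover, was at 0.07 and 0.03. Without 878 replicate 2 the 878 values changed sign, to 0.07 for Nbr1 and −0.15 for Calcoco1, and neither was called.

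The ATG8 family had 2 of 5 genes higher with siRNA 644 and 3 of 5 with siRNA 878, beside 16.6% and 16% of all tested genes called higher. Map1lc3a (LC3A) was at 19.2, 25.1 and 21.4 CPM in controls, 52.1, 40.4 and 46.4 CPM with siRNA 644 and 29.9, 51.1 and 27.7 CPM with siRNA 878. The groups did not overlap, but with siRNA 878 replicates 1 and 3 stood just above the controls and replicate 2 far above them. The fold change was 2.11 with siRNA 644 (log2 1.08, SE 0.230, edgeR adjusted p = 0.00757), and this call held in all 19 alternatives. With siRNA 878 it was 1.65 (log2 0.72, SE 0.230, adjusted p = 0.0412), and 0.40 on the log2 scale without replicate 2 (adjusted p = 0.0359). With the GC content and length offsets it was 0.48 on that scale (adjusted p = 0.000242). Without any 1 of the control or 644 libraries the 878 call was lost, with an adjusted p of up to 0.138, as it was with only the 2 groups compared in the fit (adjusted p = 0.0792).

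Gabarap, whose protein acts in late steps of autophagosome formation and closure, was at 331, 408.5 and 382 CPM in controls, 549, 482 and 556 CPM with siRNA 644 and 520.4, 660.2 and 520.3 CPM with siRNA 878. No knockdown library reached down to the controls. Its fold change was 1.41 with siRNA 644 (log2 0.50, SE 0.123, edgeR adjusted p = 0.0146) and 1.52 with siRNA 878 (log2 0.60, SE 0.123, adjusted p = 0.00615). The 878 call held in all 19 alternatives, and the 644 call was lost without control replicate 1, 644 replicate 1 or 644 replicate 3 (log2 0.42 or more, adjusted p of up to 0.0641).

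Gabarapl1, a close relative of Gabarap, was at 34.8, 35.5 and 33.3 CPM in controls, 41.6, 35.7 and 39.2 CPM with siRNA 644 and 41.6, 48.2 and 42.1 CPM with siRNA 878. Only replicate 2 of siRNA 644 came close to the controls. The log2 fold changes were 0.17 (SE 0.093, edgeR adjusted p = 0.199) and 0.35 (SE 0.093, adjusted p = 0.0206). The 878 call was lost without control replicate 1 or 3, with an adjusted p of up to 0.0795.

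Gabarapl2 (GATE-16) was at 41.2, 42.6 and 43.8 CPM in controls, 51.4, 48.7 and 47.6 CPM with siRNA 644 and 42.8, 43.4 and 45.9 CPM with siRNA 878. The 644 libraries lay above the controls and the 878 libraries overlapped them, with log2 fold changes of 0.21 (SE 0.073, edgeR adjusted p = 0.0561) and 0.05 (SE 0.073, adjusted p = 0.641). The 644 value was called with DESeq2, with the stricter low-count filter, with only the 2 groups compared, with the offsets and without 878 replicate 2 (0.21, adjusted p = 0.0242). Map1lc3b, the member most used as a marker of autophagosomes, was at 177.5, 202 and 186 CPM in controls, 228, 193 and 221 CPM with siRNA 644 and 181, 240.1 and 176 CPM with siRNA 878. Its groups overlapped, and neither log2 fold change passed the test (0.18, SE 0.128, adjusted p = 0.305, and 0.08, SE 0.128, adjusted p = 0.68). With siRNA 878 the log2 value was −0.0079 for Map1lc3b and −0.024 for Gabarapl2 when library sizes were used without TMM factors.

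Per transcript length, the summed level of the 5 ATG8 genes was 529 ± 39.2 FPKM in controls (SD, n = 3), 701 ± 29.1 with siRNA 644 and 698 ± 49.2 with siRNA 878. Gabarap made up 67.7 ± 1.28% of that sum in controls, 70.1 ± 0.832% with siRNA 644 and 73.4 ± 0.196% with siRNA 878. The share of Map1lc3b was 15.2 ± 0.543% in controls, 12.6 ± 0.194% and 11.4 ± 0.399%. These shares are descriptions of RNA and were not tested.

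**Figure D2:**
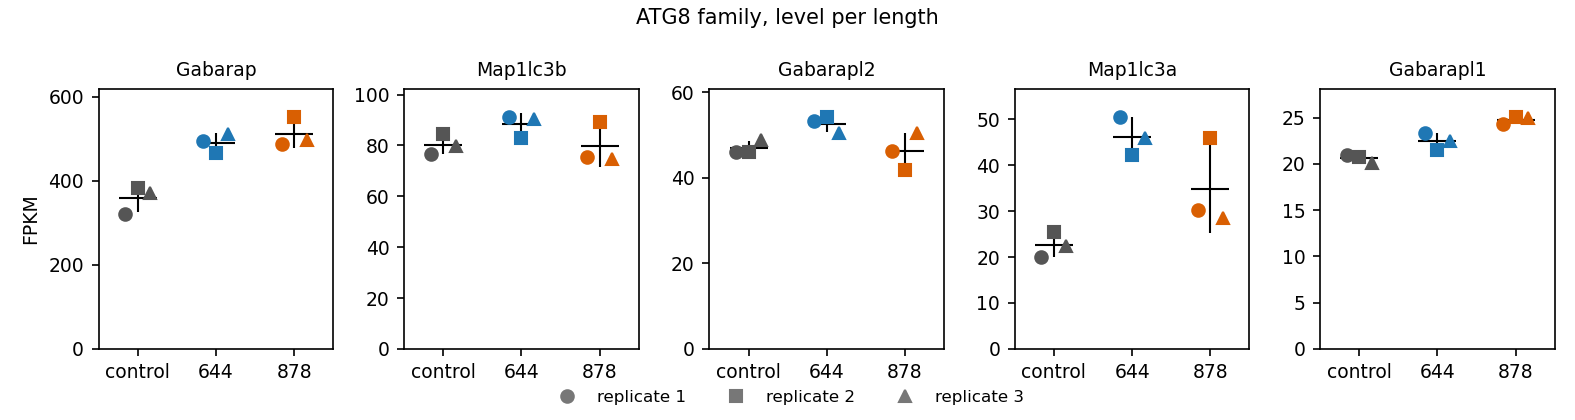
Level per transcript length (FPKM, y axis from 0, a separate scale for each gene) of the 5 ATG8 genes in control, siRNA 644 and siRNA 878 libraries. Symbols mark the replicate number, horizontal lines are means and vertical lines SD (n = 3). Gabarap moved from a mean of 358 to 491 and 512 FPKM, and Map1lc3a in replicate 2 of siRNA 878 lies far above the other 878 libraries.

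Of the 4 ER-phagy receptors, Tex264 rose with each siRNA and the other 3 did not pass the test. Tex264, an ER membrane receptor that binds ATG8 proteins through a long disordered stretch, was at 58.9, 70.2 and 60.4 CPM in controls, 105.6, 92.5 and 108 CPM with siRNA 644 and 106, 149.6 and 94.98 CPM with siRNA 878. All knockdown libraries lay above the controls, and replicate 2 of siRNA 878 was the highest. The fold change was 1.61 with siRNA 644 (log2 0.69, SE 0.163, edgeR adjusted p = 0.0123) and 1.85 with siRNA 878 (log2 0.89, SE 0.164, adjusted p = 0.00354). Without 878 replicate 2 the 878 value was 0.68 on the log2 scale (adjusted p = 0.00052) and stayed called, as it did in all 19 alternatives. The 644 call was lost without control replicate 1 or 3 (log2 0.64 or more, adjusted p of up to 0.0549). With the GC content and length offsets the 644 value was 0.44 (adjusted p = 9.58e-05).

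Retreg1 (FAM134B), which bends and fragments sheet-like ER, was at 81.6, 74.7 and 86.7 CPM in controls, 47.1, 67.2 and 52.5 CPM with siRNA 644 and 65.1, 38.7 and 73.2 CPM with siRNA 878. Every knockdown library lay below every control, but the spread among them was wide. The log2 fold changes of −0.54 (SE 0.222, edgeR adjusted p = 0.0935) and −0.46 (SE 0.221, adjusted p = 0.15) did not pass the test. Without 878 replicate 2, the 644 value of −0.54 was called (adjusted p = 0.00589) and the 878 value was −0.22 (adjusted p = 0.242). The 644 value was also called with only the 2 groups compared in the fit, and with the offsets Retreg1 was called lower with each siRNA (−0.44, adjusted p = 0.0289, and −0.38, adjusted p = 0.0491). The authors' deposited table gives Retreg1 a q-value of 0.000621 with siRNA 644.

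Rtn3, the receptor for tubular ER, was at 293, 292 and 285 CPM in controls, 274, 264 and 271 CPM with siRNA 644 and 320.5, 304 and 321 CPM with siRNA 878. All 644 libraries lay below the controls and all 878 libraries above them. Neither log2 fold change passed the test (−0.10, SE 0.0618, edgeR adjusted p = 0.228, and 0.12, SE 0.0618, adjusted p = 0.173). The 878 value was called higher with DESeq2 (adjusted p = 0.0369). With the offsets the values were 0.037 (adjusted p = 0.8) and 0.26 (adjusted p = 0.0719). The table places the gene 2700081O15Rik across Rtn3 on the opposite strand, and the strand setting of the counting is not given in the sources used here.

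Ccpg1, a receptor that is itself induced by ER stress, was at 30.0, 25.9 and 25.7 CPM in controls, 32.3, 35.9 and 31.1 CPM with siRNA 644 and 31.7, 24.4 and 32.3 CPM with siRNA 878. The 644 libraries lay above the controls and the 878 libraries overlapped them. The log2 fold changes were 0.28 (SE 0.128, edgeR adjusted p = 0.124) and 0.12 (SE 0.129, adjusted p = 0.531). The 644 value was called with only the 2 groups compared and without 878 replicate 2 (0.28, adjusted p = 0.0281).

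**Figure D3:**
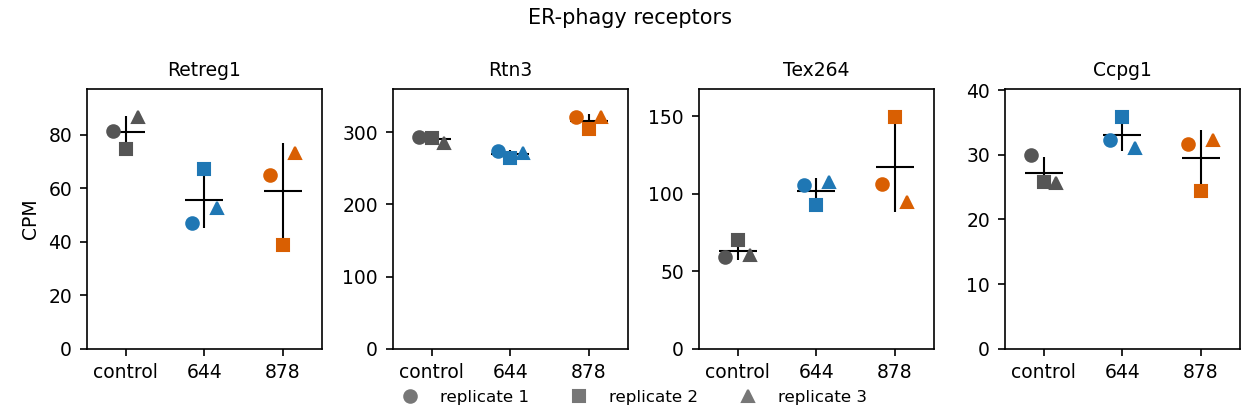
Level of the 4 ER-phagy receptors (CPM on TMM-scaled library sizes, y axis from 0, a separate scale for each gene) by group, with symbols for replicate number, means as horizontal lines and SD as vertical lines (n = 3). Tex264 lies above its controls in all 6 knockdown libraries and Retreg1 below them, and Rtn3 lies on opposite sides of its controls with the 2 siRNAs.

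In the conjugation systems, which couple ATG12 to ATG5 and ATG8 proteins to lipid, 1 of 6 genes rose with siRNA 644 (16.7%) and 2 of 6 with siRNA 878 (33.3%), beside 16.6% and 16% of all tested genes. Atg10, the E2-like enzyme that transfers ATG12 to ATG5, was at 4.85, 6.48 and 5.49 CPM in controls, 10.8, 8.74 and 8.84 CPM with siRNA 644 and 8.63, 8.59 and 7.55 CPM with siRNA 878. All knockdown libraries lay above the controls of this low-abundance gene, which had 101 to 132 estimated counts per control library. The fold change was 1.69 with siRNA 644 (log2 0.75, SE 0.146, edgeR adjusted p = 0.00463) and 1.47 with siRNA 878 (log2 0.56, SE 0.147, adjusted p = 0.0191). The 644 call held in all 19 alternatives, and the 878 call was lost without control replicate 1, control replicate 3 or 878 replicate 1 (log2 0.46 or more, adjusted p of up to 0.0782).

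Atg16l1, which positions the ATG12 and ATG5 conjugate on the membrane, was at 37.1, 36.3 and 33.8 CPM in controls, 40.3, 41.2 and 39.2 CPM with siRNA 644 and 40.8, 46.9 and 42.5 CPM with siRNA 878. All knockdown libraries lay above the controls, with log2 fold changes of 0.17 (SE 0.0834, edgeR adjusted p = 0.15) and 0.28 (SE 0.0834, adjusted p = 0.0317). The 878 call was lost without any 1 control library or without 644 replicate 1 or 3, with an adjusted p of up to 0.122. It was lost as well with library sizes alone (0.20), with no filter on low counts, with only the 2 groups compared and with limma (0.18 and 0.20), at adjusted p between 0.0583 and 0.0919. Atg7, the E1-like enzyme of both systems, was at 0.26 (adjusted p = 0.0601) and 0.23 (adjusted p = 0.0922) and was not called, although all 6 knockdown libraries lay above its controls. Atg7 was called with siRNA 644 under 4 alternatives, among them the fit without 878 replicate 2 (0.26, adjusted p = 0.0059), and with siRNA 878 with the offsets (0.19, adjusted p = 0.048). Atg3, Atg5 and Atg12 were between −0.05 and 0.06 with siRNA 644 and between 0.16 and 0.28 with siRNA 878. Atg3 (0.39, adjusted p = 0.00502) and Atg5 (0.32, adjusted p = 0.0137) were called with siRNA 878 when its replicate 2 was left out. With the offsets Atg3 (0.34, adjusted p = 0.00378), Atg5 (0.24, adjusted p = 0.0354) and Atg12 (0.31, adjusted p = 0.00861) were called higher with siRNA 878. In the edgeR fit of all 9 libraries none of the 4 ATG4 proteases, which trim ATG8 proteins before and free them after conjugation, was called, with log2 values between −0.56 (Atg4c, adjusted p = 0.105) and 0.26 (Atg4d) for siRNA 644 and between −0.54 (Atg4c, adjusted p = 0.118) and 0.07 for siRNA 878. When 878 replicate 2 was left out, Atg4c (−0.56, adjusted p = 0.0294) and Atg4a (−0.30, adjusted p = 0.0242) were called lower with siRNA 644, as they were with only those 2 groups compared. Under the offsets Atg4c was called lower with each siRNA (−0.43, adjusted p = 0.048, and −0.44, adjusted p = 0.0443). Its counts were not whole, and the table places 6 other genes across it. The authors' deposited table gives Atg4c a q-value of 0.0232 with siRNA 644.

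In the edgeR fit of all 9 libraries, no gene of the initiation complex, the ULK kinase and its scaffolds that start autophagosome formation, was called with either siRNA. The 5 log2 fold changes were between −0.29 (Rb1cc1) and −0.05 (Atg101) with siRNA 644 and between −0.21 (Atg13) and 0.15 (Rb1cc1) with siRNA 878. Atg13 was the nearest to a call, at an adjusted p of 0.0653 with siRNA 878. It was called lower with siRNA 878 in 6 alternatives, namely DESeq2, library sizes alone, both limma fits, the offsets (−0.25, adjusted p = 0.00364) and the fit without 878 replicate 2 (−0.27, adjusted p = 0.00734). With siRNA 644 it was called in limma with a pseudocount of 1 and with the offsets (−0.21, adjusted p = 0.00872). The offsets also brought Atg101 to −0.31 (adjusted p = 0.0021) and −0.16 (adjusted p = 0.0464) and Rb1cc1 with siRNA 878 to 0.34 (adjusted p = 0.028). Without 878 replicate 2 the 878 value of Rb1cc1 was 0.45 (adjusted p = 0.11).

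Among the 4 genes of the PI3-kinase complex, which makes phosphatidylinositol 3-phosphate at the forming membrane, none was called in that edgeR fit. Pik3c3, its catalytic subunit, was at −0.19 and −0.38 (adjusted p = 0.338 and 0.0721), and Becn1, Atg14 and Uvrag were between −0.14 and 0.20. With siRNA 878, Pik3c3 was called lower with DESeq2, with library sizes alone, with both limma fits and without 878 replicate 2 (−0.54, adjusted p = 0.00198). Without that library Atg14 was called higher with siRNA 878 (0.32, adjusted p = 0.0393).

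Of the 5 genes downstream of that lipid, Wipi2 rose with each siRNA (20% of the 5, beside 16.6% and 16% of all tested genes). Wipi2, which binds the lipid and recruits ATG16L1, was at 71.3, 74.8 and 71.2 CPM in controls, 94.4, 80.8 and 94.9 CPM with siRNA 644 and 87.9, 102.7 and 83.8 CPM with siRNA 878. All knockdown libraries lay above the controls. The log2 fold changes were 0.31 (SE 0.0997, edgeR adjusted p = 0.0411) and 0.34 (SE 0.0997, adjusted p = 0.0312). With siRNA 644 the call was lost without any 1 control and without 644 replicate 1, 644 replicate 3 or 878 replicate 1 (adjusted p of up to 0.14), and with siRNA 878 without any 1 control or 878 replicate 1 (adjusted p of up to 0.101). The 644 call was also lost with no filter on low counts (adjusted p = 0.0598) and with GC content and length offsets (adjusted p = 0.0652), and the 878 call with only the 2 groups compared (adjusted p = 0.0505). Atg9a, the lipid scramblase of the seed vesicles, was at 0.31 and 0.35 (adjusted p = 0.0906 and 0.0629), and the lipid transfer protein gene Atg2b was at −0.42 and −0.24 (adjusted p = 0.0548 and 0.236). Atg2a and Wipi1 were at −0.12 and 0.23 with siRNA 644 and −0.23 and 0.24 with siRNA 878, and were not called. Without 878 replicate 2, Atg9a (0.31, adjusted p = 0.00592) and Atg2b (−0.42, adjusted p = 0.0113) were called with siRNA 644 and Atg2a (−0.32, adjusted p = 0.00491) with siRNA 878. With the offsets Atg9a was called with siRNA 878 (0.29, adjusted p = 0.0111), Atg2b with siRNA 644 (−0.39, adjusted p = 0.00161) and Atg2a with each siRNA (−0.25 and −0.28).

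**Figure D4:**
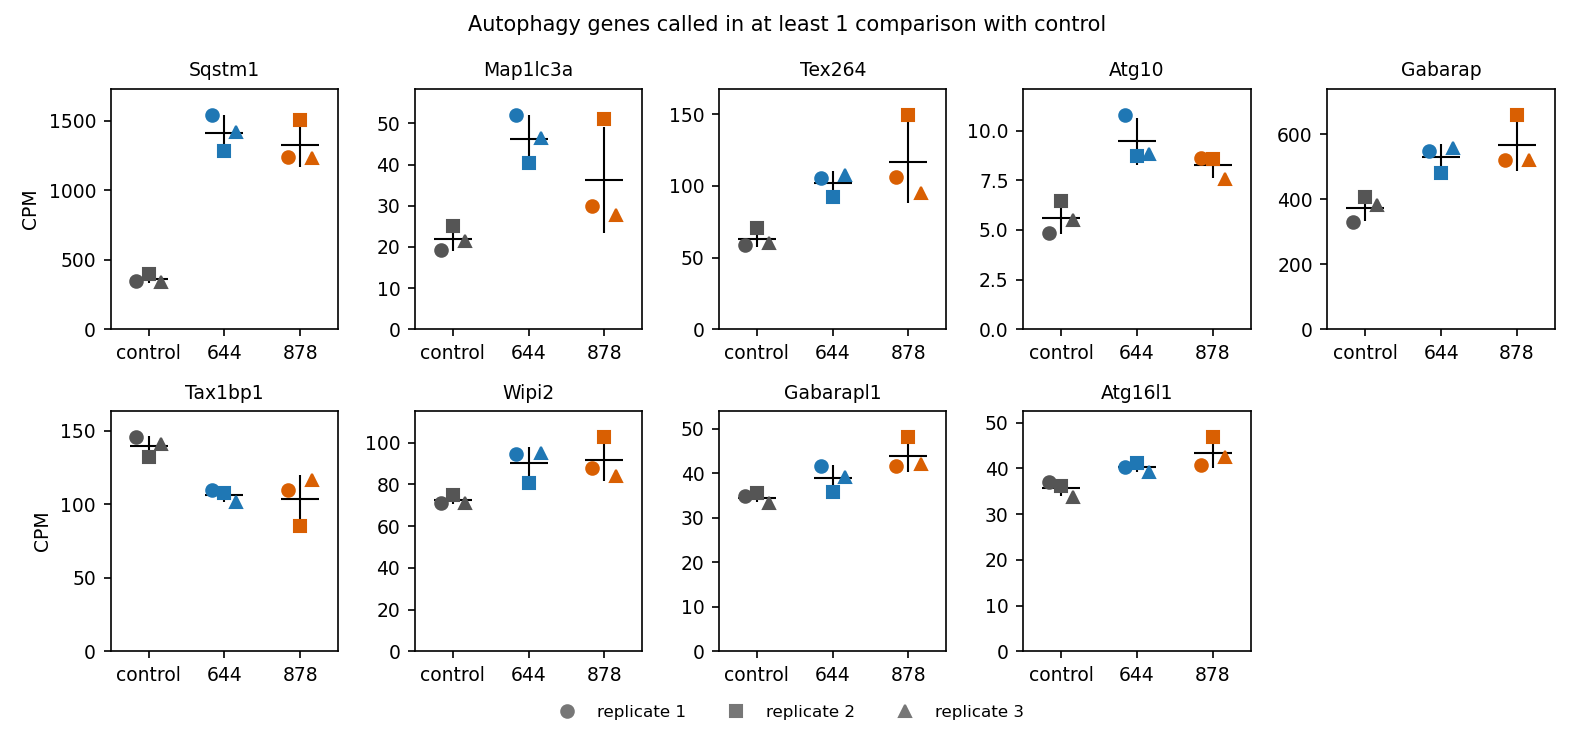
Level (CPM on TMM-scaled library sizes, y axis from 0, a separate scale for each gene) of the 9 autophagy genes called in at least 1 comparison with control. Symbols mark the replicate number, horizontal lines are means and vertical lines SD (n = 3). Replicate 2 of siRNA 878 (orange square) is the extreme 878 library in most panels, as in Map1lc3a at 51.1 CPM beside 29.9 and 27.7.

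Counted by overlap of the groups, 13 of the 37 genes (35.1%) had all 644 libraries above all controls, 12 (32.4%) had all below and 12 overlapped. Over all tested genes 28% lay above and 27.7% below. With siRNA 878, 12 genes (32.4%) lay above, 6 (16.2%) below and 19 overlapped, beside 22.5% and 22.6% of all tested genes. The median coefficient of variation of the 37 genes was 6.13% in controls, 7.74% with siRNA 644 and 15.2% with siRNA 878, and reached 42.4% for Rb1cc1 in the 878 group.

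The second question is whether the siRNAs differed in these genes. In edgeR no autophagy gene was called between siRNA 878 and siRNA 644 (0 of 37, beside 1.51% of all tested genes, of which 0.315% were higher and 1.19% lower with siRNA 878). At an unadjusted p under 0.05, 2 of the 37 genes differed, beside 15.1% of all tested genes, DESeq2 called 1 and limma on log2(FPKM + 1) called 0. Rtn3 had a log2 difference of 0.22 (SE 0.0618, adjusted p = 0.118) and Atg3, the E2-like enzyme for ATG8 proteins, one of 0.33 (adjusted p = 0.199). For Sqstm1 the difference was −0.09 (SE 0.115, adjusted p = 0.799) and for Tex264 0.20 (SE 0.162, adjusted p = 0.665). Map1lc3a differed by −0.36 (SE 0.227, adjusted p = 0.535). Without 878 replicate 2, 5 of the 37 were called, namely Rb1cc1 (0.74), Atg3 (0.44), Rtn3 (0.26), Pik3c3 (−0.35) and Map1lc3a (−0.67), with adjusted p between 0.0129 and 0.0408. The same omission raised the count over all tested genes from 177 to 2072.

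A subset of 12 of the 37 genes is known to depend on the stress transcription factors ATF4 or CHOP in mouse fibroblasts starved of amino acids. In that subset 3 genes (Sqstm1, Atg10 and Gabarap) were called higher with siRNA 644, 4 (with Atg16l1 added) with siRNA 878, and none lower. These are 25% and 33.3% of the subset, beside 16.6% and 16% of all tested genes called higher. Its median log2 fold change was 0.18 and 0.20. The other 25 genes had 3 higher and 1 lower with siRNA 644, 4 higher and 1 lower with siRNA 878, and medians of −0.10 and 0.03. The members of the subset that were not called include Atg7, Nbr1, Becn1 and Map1lc3b. No test was made of the difference between these groups of genes.

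Promoter sequence was available in RefSeq (GRCm38.p6) for 31 of the 37 genes, as windows of 250 bases before to 50 after the start, and was read for binding motifs on both strands. The 120 bases before the start are shown for 4 genes that rose with each siRNA and for Atg3, the only gene with the CLEAR motif. Capitals mark matches to the GC box (GGGCGG, or its reverse CCGCCC) and, in Atg3, to the E-box CACGTG and the CLEAR motif TCACGTGA. The CLEAR motif, the element recognised by TFEB, contains the E-box.
Sqstm1, chr11:50210821-50210940, minus strand: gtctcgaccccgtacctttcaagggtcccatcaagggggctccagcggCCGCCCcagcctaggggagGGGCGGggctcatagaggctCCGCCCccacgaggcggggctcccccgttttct
Gabarap, chr11:69991250-69991369, plus strand: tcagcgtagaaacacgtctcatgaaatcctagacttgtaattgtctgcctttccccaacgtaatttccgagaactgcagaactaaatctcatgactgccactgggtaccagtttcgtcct
Tex264, chr9:106685953-106686072, minus strand: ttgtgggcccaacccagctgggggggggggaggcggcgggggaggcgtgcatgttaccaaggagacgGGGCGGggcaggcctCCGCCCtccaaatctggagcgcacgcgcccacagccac
Atg10, chr13:91223988-91224107, minus strand: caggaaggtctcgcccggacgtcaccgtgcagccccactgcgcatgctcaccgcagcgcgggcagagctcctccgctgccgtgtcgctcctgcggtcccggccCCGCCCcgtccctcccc
Atg3, chr16:45158709-45158828, plus strand: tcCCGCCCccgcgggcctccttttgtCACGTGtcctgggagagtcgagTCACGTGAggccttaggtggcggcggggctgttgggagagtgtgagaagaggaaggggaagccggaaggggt

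Sqstm1, Tex264 and Atg10 carry GC boxes in these stretches and Gabarap carries no match, with a GC content of its whole window of 45.7% beside 63.3% for Sqstm1 and 73.0% for Atg10. Of the 31 genes, 24 held a GC box, where 67.4% of the tested genes with a window did. The E-box was in 5 (Atg3, Atg5, Atg7, Atg14 and Retreg1), beside 11.9% of tested genes, and the antioxidant response element TGACNNNGC in 5 (Atg13, Map1lc3b, Rtn3, Tax1bp1 and Ulk2), beside 17% of tested genes. The CLEAR motif was in 1 (Atg3), beside 2.21% of tested genes. The CCAAT box was in 8 genes, beside 43.5%, and overlaps the ER stress element by construction. No window held the CARE motif of ATF4 and CHOP (TGATGNAA, 2.89% of tested genes), the unfolded protein response element TGACGTGG (1%) or the ER stress element (CCAAT and CCACG spaced by 9 bases, 0.148%). Each match or its absence describes the letters of these windows alone.

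Genes that control or surround the same pathway were counted from lists of their own, to be read beside the 31.6% (siRNA 644) and 31.5% (siRNA 878) of all tested genes called. Of 32 tested genes of mTORC1 and TFEB control, 6 rose and 8 fell with siRNA 644 and 6 rose and 7 fell with siRNA 878 (43.8% and 40.6% called), with medians of −0.10 and −0.08. Sesn2, a leucine sensor that holds mTORC1 back, rose by 1.37 and 1.20 on the log2 scale (SE 0.0824 and 0.0822). Mlst8, a subunit of mTOR complexes, rose by 0.91 and 0.96. Castor1, the arginine sensor, was at −1.28 and −1.11, and Deptor, an inhibitor within mTOR complexes, at −1.22 and −0.78, and both were called lower. The list thus held called genes in each direction.

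Of 15 other genes of autophagosome formation, 5 rose and none fell with each siRNA, with medians of 0.12 and 0.34. The 33.3% called is near the share of all tested genes called in either direction, of which 16.6% and 16% were higher. Rubcn, which restrains the PI3-kinase complex, was at 0.81 and 0.93, and the ER lipid scramblases Vmp1 and Tmem41b at 0.62 and 0.57 and at 0.39 and 0.49, all called. Wdr45, a PI3P-binding relative of the WIPI proteins, was called with siRNA 644 (0.64) and not with siRNA 878 (0.34, adjusted p = 0.174). Of 15 genes of fusion with lysosomes, 2 rose with siRNA 644 (Plekhm1 0.26 and Vps11 0.27) and 1 with siRNA 878 (the SNARE Ykt6, 0.55), and none fell (13.3% and 6.67% called). Most fusion genes did not pass the test, and their medians were 0.03 and 0.07.

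Of 11 genes of mitophagy, the removal of mitochondria, 2 rose and 3 fell with siRNA 644 and 3 rose and 4 fell with siRNA 878 (45.5% and 63.6% called), with medians of −0.15 and −0.06. Bnip3, a mitochondrial receptor known as a target of hypoxia signalling, was at −2.41 (SE 0.143) and −1.72 (SE 0.139). Pink1, the kinase that marks damaged mitochondria, rose by 1.11 and 1.04 on the log2 scale. Nipsnap1, a mitochondrial protein that recruits autophagy receptors, was at −0.37 and −0.77. The list thus held called genes in opposite directions.

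Of 15 other genes of ER-phagy and of UFMylation, the attachment of the small protein UFM1 at the ER membrane, 5 rose and 2 fell with siRNA 644 and 6 rose and none fell with siRNA 878 (46.7% and 40% called), with medians of 0.19 and 0.34. Ddrgk1, the ER anchor of the UFM1 ligase, rose by 1.97-fold and 2.01-fold. Ufm1 itself rose by 0.61 and 0.94 on the log2 scale. Atl2, an ER-shaping atlastin, was called lower with siRNA 644 (−0.86) and was at −0.66 with siRNA 878 (adjusted p = 0.0587). Of 6 other receptors and adaptors, Bag3, a chaperone partner in aggregate clearance, rose by 0.48 and 0.33 and the other 5 were not called.

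Replicate 2 of siRNA 878 and base composition moved with these results. Over the 37 genes, the median absolute log2 ratio of that library to the mean of the other 878 libraries was 0.392, against 0.0994 between replicates 1 and 3. Across the 37 genes, which share these libraries and are not replicates, the ratio had a Spearman rho of 0.774 with the GC content of the transcript. The log2 fold changes had a rho of 0.457 (siRNA 644) and 0.282 (siRNA 878) with GC content and of −0.405 and −0.372 with length. Without that library, 15 of the 37 genes were called with siRNA 644 (10 higher, 5 lower) and 15 with siRNA 878 (11 higher, 4 lower), and over all tested genes the counts were 6004 and 4824. With offsets for GC content and length in the fit, 13 were called with siRNA 644 (6 higher, 7 lower) and 20 with siRNA 878 (14 higher, 6 lower). Sqstm1, Map1lc3a and Atg10 for siRNA 644, and Sqstm1, Tex264 and Gabarap for siRNA 878, were called in all 19 alternatives, and no other call was. The part of base composition in the remaining calls was not tested, nor was that of the lower Nus1 level in 878 replicate 2.

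**Figure D5:**
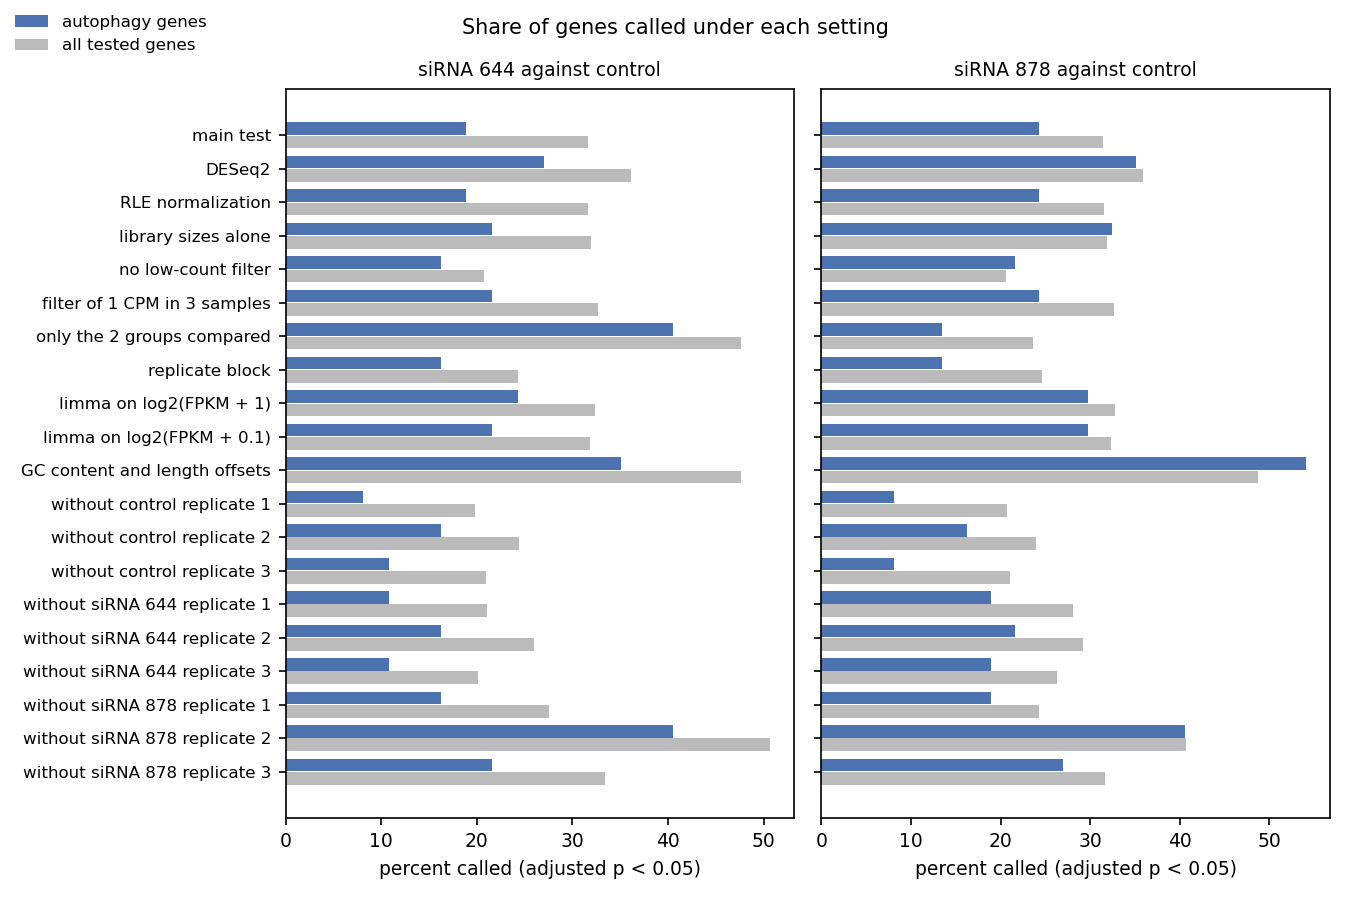
Percent of the 37 autophagy genes (blue) and of all tested genes (grey) with an adjusted p under 0.05 (x axis, from 0) under the main test and each of the 19 alternatives, for siRNA 644 (left) and siRNA 878 (right) against control. With siRNA 644 the blue bar stays below the grey bar under every setting, as in 18.9% against 31.6% in the main test, and with siRNA 878 it passes the grey bar with library sizes alone, no low-count filter and the GC content and length offsets.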

How the data were processed

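The authors deposited estimated counts of reads per gene (37.4% of nonzero values not whole) with FPKM values, log2 fold changes and DESeq2 q-values; 9 further per-sample columns were not used. Bowtie2 2.4.5, DESeq2 1.34.0 and build mm39 appear in the submitters' processing notes, but 12052 of 16347 matched genes have the coordinates of RefSeq GRCm38.p6, so no coordinates of the table are printed. Counts were rounded and tested with edgeR 4.0.16 in R 4.3.3 (quasi-likelihood F test, TMM, filterByExpr with a minimum count of 10 and total of 15) in 1 fit of 9 libraries by group. P-values were adjusted by Benjamini-Hochberg over 11739 genes and called under 0.05. Each SE was obtained from the log2 fold change and its F statistic. Tested on simulated data for 11739 genes, the fit recovered 19.8%, 78.2% and 95.3% of genes changed by 1.5, 2 and 4 times for siRNA 644 against control, and 32.9%, 75.5% and 95.8% for siRNA 878. Far fewer genes were changed in the simulated data than were called in the measured data.

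Alternatives were DESeq2 1.42.0, limma 3.58.1 on log2 of FPKM plus 1 or 0.1, other normalizations and filters, a replicate block, GC and length offsets, and leaving out each library. The members, roles and lists were chosen with earlier results of these data known. Full values are given for called members, the ATG8 family and the ER-phagy receptors, and up to 4 called genes are named per other list, of which some are not reported here. The fit without siRNA 878 replicate 2 was singled out after seeing the data. Counts were not whole for 10 members, and 10 overlap another gene of the table. P-values weigh each group difference against the spread between these libraries, and the labels do not say whether these were transfected on separate days.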

Additional observations from a re-analysis of the deposited data

Results flagged for a closer look

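Rtn3, the receptor for tubular ER, lay below all controls in the 3 libraries of siRNA 644 (264 to 274 CPM) and above all controls in the 3 libraries of siRNA 878 (304 to 321 CPM), with controls at 285 to 293 CPM. This pattern was looked for among the 37 autophagy genes alone, and the share of all tested genes that show it was not counted. The log2 difference between the siRNAs was 0.224 (SE 0.0618) and did not pass edgeR's test (adjusted p = 0.118). DESeq2 called it, and without siRNA 878 replicate 2 edgeR called it too (0.26, adjusted p = 0.0181). With offsets for GC content and length, the value of siRNA 644 against control was 0.037 in place of −0.10 and that of siRNA 878 was 0.26 (adjusted p = 0.0719), so that they no longer lay on opposite sides of 0, and the difference between the siRNAs was 0.227 (adjusted p = 0.209).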

How the results depend on the processing

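Counts of autophagy genes called moved by more than 1.5 times under these settings. With only the 2 groups compared in the fit they were 15 with siRNA 644 and 5 with siRNA 878, and with GC content and length offsets 13 and 20. Between the siRNAs, 1 was called with DESeq2 and 4 with the offsets (Atg3, Map1lc3a, Gabarapl1 and Tex264). With library sizes alone the split was 8 higher and 0 lower with siRNA 644 and 8 higher and 4 lower with siRNA 878. Same-numbered libraries did not deviate together as a rule (correlations from −0.69 to 0.55). Across numbers, control replicate 2, 644 replicate 1 and 878 replicate 2 deviated in the same direction (correlations of 0.43, 0.55 and 0.59). With the replicate block 6 autophagy genes were called with siRNA 644, 5 with siRNA 878 and 14 genes of all between the siRNAs. The calls of Wipi2 with each siRNA and of Atg16l1, Map1lc3a and Gabarapl1 with siRNA 878 were lost (edgeR adjusted p from 0.057 to 0.0908). Over all tested genes, siRNA 878 against control gave 5629 with the offsets. The 177 genes called between the siRNAs became 688 with DESeq2, 298 with library sizes alone, 5 with only the 2 groups, 370 and 323 with limma (pseudocounts 1 and 0.1) and 1503 with the offsets. Leaving out 1 library gave 3 to 15 autophagy genes with siRNA 644, 3 to 15 with siRNA 878 and 0 to 5 between the siRNAs, and 2343 to 6004, 2455 to 4824 and 12 to 2072 of all genes. The causes were not tested.

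Of the genes described in full, these changed sign, each uncalled in both analyses. Map1lc3b with siRNA 878 was −0.0079 with library sizes alone, −0.012 with both limma fits and −0.032 with the offsets, and −0.070 (without 878 replicate 2) to 0.16 without 1 library. Gabarapl2 with siRNA 878 was −0.024 with library sizes alone, −0.027 with limma at a pseudocount of 1 and −0.028 at 0.1. Rtn3 with siRNA 644 was 0.037 with the offsets. Between the siRNAs, Wipi2 was −0.013 with library sizes alone and −0.0030 with both limma fits. Without 1 library the differences between the siRNAs ran from −0.058 to 0.082 for Wipi2, −0.013 to 0.16 for Gabarap, −0.0071 to 0.33 for Tex264, −0.12 to 0.10 for Tax1bp1 and −0.098 to 0.32 for Retreg1. Most changes of 1.5 times were not recovered in simulated data, in which far fewer genes were changed than were called here. An uncalled gene with a wide SE, such as Rb1cc1 (0.311 with siRNA 644), may have changed by that much. Other uncalled genes had a narrow SE, such as Rtn3 (0.0618).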
